A study of Mus musculus with 106 samples.

Results

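Ccdc63, Chil5, Spef1, Neb, Svep1 and Stap2 are 6 of the 55401 mouse genes in the deposited table. They were selected on their measured levels, because each differed in the same direction between Huntington's disease (HD) model mice and controls in ribosome-bound mRNA, taken by immunoprecipitation (IP), from 2 classes of cerebellar neuron, those marked by Gad2 and those marked by vGluT2. Spef1 was the member with the higher HD level, and the other 5 had the lower one. Those differences selected the genes, so they are given here as a description and carry no test. The tests below use libraries that the choice did not use, which are total RNA of both regions and the cerebral IPs. The control cerebellar IP libraries were 1 arm of the contrasts that selected the genes, so comparisons of them with other sets are a description too.

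HD mice were Hdh Q7/Q200 heterozygotes, with a long CAG repeat knocked into 1 copy of the endogenous mouse gene and no human sequence, and controls were Hdh Q7/Q7 littermates. By the paper, mice of both genotypes were on a congenic 129S4 background and about 9 months old. They were heterozygous both for RiboTag, an HA tag on the ribosomal protein Rpl22 that Cre switches on, and for a Cre driver. The drivers were Gad2-IRES-Cre, vGluT2-IRES-Cre, PV-IRES-Cre or an SST Cre line. The paper does not report the SST line, so breeding, background and age are not given there for its mice. From the cerebellum, or from the cerebrum without the olfactory bulb, HA-tagged ribosomes were immunoprecipitated and their mRNA sequenced, and an aliquot of the same homogenate gave the input, which is total RNA of all cells. The cerebellar IP sets held 6 HD and 6 control libraries for Gad2 and 6 HD and 5 control libraries for vGluT2. The cerebral IP sets held 6 and 6 for Gad2, 5 and 6 for PV (pooled duplicate IPs), 6 and 6 for vGluT2 and 4 and 5 for SST. The cerebellar Gad2, PV and cerebral vGluT2 IPs each held 1 library that was re-sequenced after a failed run, all from HD mice. Cerebellar input came from 3 HD and 3 control mice of the Gad2 line and from 4 and 4 of the vGluT2 line. Cerebral input came from 3 and 3 mice of each of the Gad2, PV and vGluT2 lines and from 3 HD and 4 control mice of the SST line. In the SST sets some control mice carry labels of a series (Z) that no HD mouse has, and whether these were littermates was not checked. Cre acts in every cell that has expressed the driver by 9 months, so an IP holds all such cells of the region. A change in these bulk samples may come from fewer cells of a type or from less RNA per cell. In an IP it may also come from RNA carried over from other cells. These cannot be told apart.

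The 106 libraries held 21905238 to 107753596 counts on mouse genes. Levels are CPM, counts scaled to library size, after TMM scaling over all libraries, with the SD over libraries. Marker genes followed the labels in the cerebellum. In controls the GABAergic list (Gad1, Gad2, Slc32a1) summed to 2995 ± 442 CPM in the Gad2 IP (SD, n = 6) and 183 ± 44.5 CPM in the vGluT2 IP (n = 5). Slc17a6, the gene of vGluT2, stood at 45.0 ± 37.2 CPM in the vGluT2 IP and 4.31 ± 2.56 CPM in the Gad2 IP. In the cerebrum Slc17a6 was at 114 ± 38.6 CPM in the control vGluT2 IP (n = 6), but also at 117 ± 20.5 CPM in the PV IP (n = 6) and 106 ± 22.7 CPM in the SST IP (n = 5). Pvalb was highest of the cerebral IPs in that for PV, with 615 ± 96.5 CPM, and Sst in that for SST, with 1326 ± 293 CPM.

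The cerebellum holds far more granule cells, its excitatory relay neurons, than any other neuron. Its inhibitory neurons, Purkinje cells and several interneuron types, express Gad2, and granule cell RNA can be carried into their IPs. The members are better known outside neurons. Ccdc63 encodes a coiled-coil protein related to the docking complex of outer dynein arms in the sperm flagellum, and Spef1 a calponin-homology protein that binds microtubules in cilia and flagella. Neb encodes nebulin, the giant protein along the thin filaments of skeletal muscle. Svep1 encodes a large extracellular matrix protein that binds integrins and acts in lymphatic vessel formation. Chil5 belongs to the chitinase-like secreted proteins, and Stap2 encodes an adaptor with PH and SH2 domains used in kinase and STAT signalling.

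All 6 members lie on the minus strand in the annotation of GRCm38. Ccdc63 (ENSMUSG00000043036.13) spans chromosome 5 from 122108040 to 122140823, on the chromosome that holds the mutated gene, Htt, at 34761740 to 34912534. Chil5 (ENSMUSG00000043873.11) spans chromosome 3 from 106016919 to 106032814, Svep1 (ENSMUSG00000028369.15) chromosome 4 from 58042442 to 58206859 and Stap2 (ENSMUSG00000038781.7) chromosome 17 from 55997077 to 56005584. Spef1 (ENSMUSG00000027329.9) and Neb (ENSMUSG00000026950.18) share chromosome 2, at 131170261 to 131187282 and at 52136647 to 52378474. The exons cover 7351 bases in Ccdc63, 1509 in Chil5, 2747 in Spef1, 26582 in Neb, 16117 in Svep1 and 2569 in Stap2.

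Ccdc63 was highest in the control vGluT2 IP and low in every HD set of the cerebellum. In the Gad2 IP it ranged from 3.27 to 4.99 CPM in controls (median 4.23) and from 1.67 to 2.44 CPM in HD mice (median 1.99). The 5 control vGluT2 IPs held 10.5, 11.1, 12.4, 15.4 and 10.5 CPM, against 1.90 to 4.22 CPM (median 3.01) in the 6 HD libraries. The genotypes did not overlap in either IP, and the log2 fold change (HD minus control) that chose the gene was −1.03 in the Gad2 IP and −1.99 in the vGluT2 IP. In input of the Gad2 line Ccdc63 measured 5.80, 3.57 and 6.88 CPM in controls and 1.10, 2.47 and 1.03 CPM in HD mice. Input of the vGluT2 line held 3.81, 5.30, 7.22 and 3.56 CPM in controls and 1.17, 1.14, 1.24 and 1.34 CPM in HD mice. All 7 HD inputs lay below all 7 control inputs.

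Spef1, the other cilium gene, was higher in HD mice. Its Gad2 IP values were 6.59 to 12.1 CPM in controls (median 8.90) and 12.5 to 19.4 CPM in HD mice (median 14.7). For the vGluT2 IP the controls were at 9.74, 7.25, 9.90, 11.7 and 10.2 CPM and the HD mice at 18.4 to 26.6 CPM (median 22.6). Each HD library exceeded each control library in both IPs, with log2 fold changes of 0.70 and 1.24 in the contrasts used for the choice. The Gad2 line's input held 18.04, 10.8 and 12.2 CPM in controls and 21.8, 29.1 and 21.02 CPM in HD mice. That of the vGluT2 line held 10.1, 11.6, 13.9 and 7.63 CPM in controls and 13.7, 16.8, 24.5 and 20.2 CPM in HD mice. HD inputs were mostly higher, with 5 of 7 above every control. The genotypes overlapped through a control of the Gad2 line at 18.04 CPM and HD inputs of the vGluT2 line at 13.7 and 16.8 CPM. Within the vGluT2 line, the control at 13.9 CPM was also above the HD input at 13.7 CPM.

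Neb ranged from 3.57 to 9.06 CPM in control Gad2 IPs (median 5.74) and from 2.004 to 4.02 CPM in HD ones (median 2.71). The vGluT2 IP held 15.7, 24.7, 20.2, 24.5 and 13.8 CPM in controls and 8.03 to 12.5 CPM in HD mice (median 9.92). The genotypes overlapped in the Gad2 IP and stayed apart in the vGluT2 IP, with log2 fold changes of −1.07 and −0.94 that were part of the choice. In input of the Gad2 line the controls had 11.4, 14.5 and 5.80 CPM and the HD mice 3.50, 1.85 and 6.47 CPM. In input of the vGluT2 line the controls had 12.2, 13.96, 15.7 and 8.51 CPM and the HD mice 1.72, 1.91, 1.34 and 1.27 CPM. HD inputs of the vGluT2 line were far below their controls, while in the Gad2 line 1 HD library was above the lowest control.

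Svep1, the matrix protein gene, was lower in HD mice with less distance between the genotypes in the IPs. Its control Gad2 IPs ran from 6.98 to 17.1 CPM (median 11.2) and its HD ones from 4.80 to 7.13 CPM (median 6.39). The vGluT2 IP gave 25.7, 36.4, 34.4, 54.1 and 32.4 CPM in controls and 16.5 to 28.1 CPM in HD mice (median 22.7). In both IPs the genotypes overlapped at their edges, and the log2 fold changes of the choice were −0.95 and −0.71. Gad2 line input held 41.4, 30.9 and 25.2 CPM in controls and 15.9, 19.0 and 18.8 CPM in HD mice. vGluT2 line input held 26.3, 28.3, 32.7 and 19.8 CPM in controls and 18.2, 11.3, 13.1 and 10.8 CPM in HD mice. Every HD input was below every control input.

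Chil5 was almost absent from the Gad2 IP. It ranged there from 0.651 to 1.68 CPM in controls (median 0.954) and from 0.107 to 0.457 CPM in HD mice (median 0.324), where the HD libraries held 3 to 29 counts. The vGluT2 IP held 19.1, 9.85, 14.1, 13.9 and 9.23 CPM in controls and 2.77 to 5.98 CPM in HD mice (median 4.03). HD and control libraries did not overlap in either IP, and the log2 fold changes that served the choice were −1.94 and −1.64. In input of the Gad2 line Chil5 stood at 6.43, 6.41 and 7.27 CPM in controls and 3.16, 3.97 and 1.78 CPM in HD mice. In input of the vGluT2 line it stood at 5.67, 7.24, 8.86 and 4.05 CPM in controls and 2.35, 2.16, 2.33 and 2.41 CPM in HD mice. The highest HD input, at 3.97 CPM, was just under the lowest control, at 4.05 CPM.

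Stap2 showed a similar division. The Gad2 IP held 0.868 to 1.76 CPM in controls (median 1.34) and 0.322 to 0.870 CPM in HD mice (median 0.581). The vGluT2 IP held 9.63, 7.28, 8.57, 10.5 and 10.9 CPM in controls and 1.79 to 3.58 CPM in HD mice (median 2.16). The genotypes touched at 0.868 and 0.870 CPM in the Gad2 IP and were apart in the vGluT2 IP, with log2 fold changes of −1.27 and −2.01 behind the choice. Gad2 line input gave 4.54, 1.82 and 5.41 CPM in controls and 1.20, 1.27 and 1.09 CPM in HD mice. vGluT2 line input gave 2.72, 4.48, 3.52 and 3.28 CPM in controls and 1.77, 0.682, 1.20 and 1.06 CPM in HD mice. All HD inputs were below all controls, the nearest pair being 1.77 and 1.82 CPM.

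**Figure D1:**
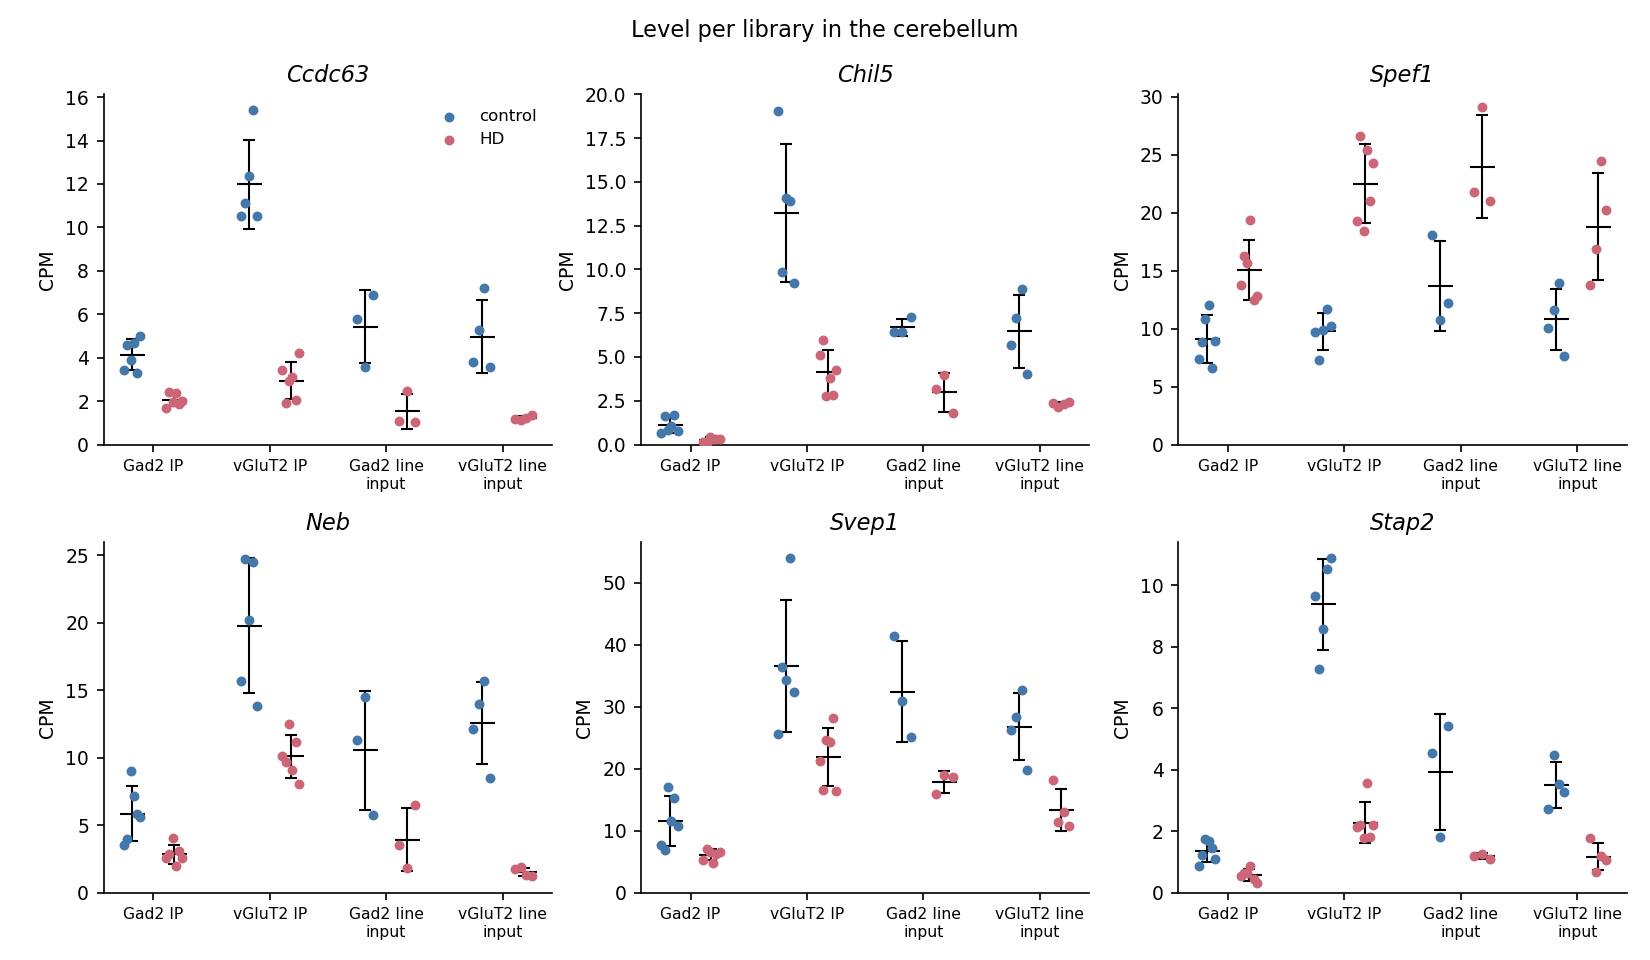
Level in CPM (y axis) of each member in every cerebellar library by set (x axis), controls in blue and HD in red, with the mean and SD. Ccdc63, Chil5 and Spef1 are separated by genotype in both IPs, and all but Spef1 and Neb in the input of the 7 HD and 7 control mice.

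Groups without overlap were uncommon among all genes. In the Gad2 IP 2 of the 5 lower members (Ccdc63, Chil5) were apart in this way, beside 0.0922% of the 14098 genes tested with HD lower, and Spef1 beside 0.192% with HD higher. In the vGluT2 IP 4 of the 5 lower members were apart, beside 2.31% of 13487 genes with HD lower, and Spef1 beside 1.42% with HD higher. Nothing follows from these counts, since the same values chose the members.

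The 6 members all differed between HD and control mice in cerebellar input, the libraries the choice did not use, by edgeR's quasi-likelihood test with the Cre line as a covariate and Benjamini-Hochberg adjustment over all genes tested, called at an adjusted p of 0.05 or less. Cilium-related Ccdc63 fell from 5.16 ± 1.56 CPM in controls (SD, n = 7) to 1.35 ± 0.5003 CPM in HD mice (n = 7), a log2 difference of −2.01 (SE 0.228, adjusted p = 0.000513, lower in 7 of 7). Spef1 rose from 12.0 ± 3.29 to 21.02 ± 4.99 CPM, a log2 difference of 0.74 (SE 0.155, adjusted p = 0.0237, with 5 of 7 above every control). Nebulin's Neb fell from 11.7 ± 3.51 to 2.58 ± 1.87 CPM (log2 −2.38, SE 0.380, adjusted p = 0.00663, with 6 of 7 below every control). Among the secreted proteins, Svep1 fell from 29.2 ± 6.81 to 15.3 ± 3.55 CPM (log2 −1.003, SE 0.158, adjusted p = 0.00612, lower in 7 of 7), and Chil5 from 6.56 ± 1.49 to 2.59 ± 0.734 CPM (log2 −1.42, SE 0.191, adjusted p = 0.00203, lower in 7 of 7). The adaptor gene Stap2 fell from 3.68 ± 1.22 to 1.18 ± 0.323 CPM (log2 −1.69, SE 0.249, adjusted p = 0.00413, lower in 7 of 7). In the same fit 24.5% of 14477 genes were called, 12.5% with HD lower and 12.0% with HD higher, so a call alone was common there. Groups apart were rarer, at 0.49% of genes with HD lower, as in 4 of the 5 lower members, and 0.635% with HD higher, which Spef1 was not.

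All but 1 of the input libraries (control vGluT2 line 4) come from mice that also gave the cerebellar IPs, so these calls are hardly evidence from other animals. Spef1 lost its call when any of 6 libraries was left out (HD Gad2 line 2, HD vGluT2 line 3 or 4, control vGluT2 line 1, 2 or 4), with an adjusted p of up to 0.0623. Over all single libraries left out, its log2 fold change ran from 0.67 to 0.81 and the number of genes called from 96 to 7408. With the replicate number as a block only Ccdc63 was called (−2.01, adjusted p = 0.0343), among 9 genes in all, although replicate numbers did not pair libraries that were alike.

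The 2 Cre lines carried different weight. In the vGluT2 line alone (4 HD and 4 control inputs) all 6 members were called among 51.7% of 14630 genes. The log2 fold changes there were −2.14 for Ccdc63 (adjusted p = 0.000182), 0.67 for Spef1 (0.0185), −3.13 for Neb (3.83e-05), −1.12 for Svep1 (0.00132), −1.60 for Chil5 (0.000482) and −1.69 for Stap2 (0.00154). In the Gad2 line alone (3 and 3) edgeR called no gene of 14226 (0.0%), with 316 genes at an unadjusted p under 0.05. The members' log2 fold changes had the same signs, at −1.83 for Ccdc63, 0.82 for Spef1, −1.39 for Neb, −0.85 for Svep1, −1.19 for Chil5 and −1.70 for Stap2, each with an adjusted p of 0.9999. A genotype by line interaction, added after seeing the data, called 1.64% of 14477 genes and no member. The nearest was Neb, with a vGluT2 line effect minus Gad2 line effect of −1.76 (SE 0.568, adjusted p = 0.0843), which DESeq2 called at −1.73 (adjusted p = 0.0255), and which edgeR called without the second control or the second HD input of the Gad2 line. The interaction was −0.32 for Ccdc63 (SE 0.447, adjusted p = 0.631), −0.16 for Spef1 (0.313, 0.742), −0.29 for Svep1 (0.310, 0.537), −0.43 for Chil5 (0.367, 0.434) and 0.00 for Stap2 (0.539, 0.998).

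Base composition moved with genotype in the vGluT2 line's input. Genes were put in 4 equal groups from lowest to highest GC content of their longest transcript. The median log2 fold change over these groups was −0.95, −0.26, 0.28 and 0.50 in the vGluT2 line. It was −0.04, −0.01, 0.03 and 0.05 in the Gad2 line and −0.56, −0.16, 0.17 and 0.30 in both. The members' longest transcripts have 48.6% GC for Ccdc63, 47.7% for Chil5, 53.1% for Spef1, 47.0% for Neb, 52.0% for Svep1 and 55.9% for Stap2. Genes within 1 percentage point of Ccdc63 had a median log2 fold change of −0.14 in the vGluT2 line, and the same median was 0.32 for Spef1, −0.37 for Neb, 0.28 for Svep1, −0.28 for Chil5 and 0.44 for Stap2. This median had the opposite sign to the member's own change for Svep1 and Stap2, and the same sign for Ccdc63, Spef1, Neb and Chil5. With GC content as an offset, an alternative chosen after seeing the data, all 6 members were still called in both lines together, where 20.5% of genes were called. Their log2 fold changes were then −1.92 for Ccdc63, 0.55 for Spef1, −2.18 for Neb, −1.17 for Svep1, −1.24 for Chil5 and −1.97 for Stap2. In the vGluT2 line alone with the offset, 32.3% of genes were called and Spef1 was not, at 0.37 (adjusted p = 0.192). The part of GC content in the members' changes was not tested further.

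**Figure D2:**
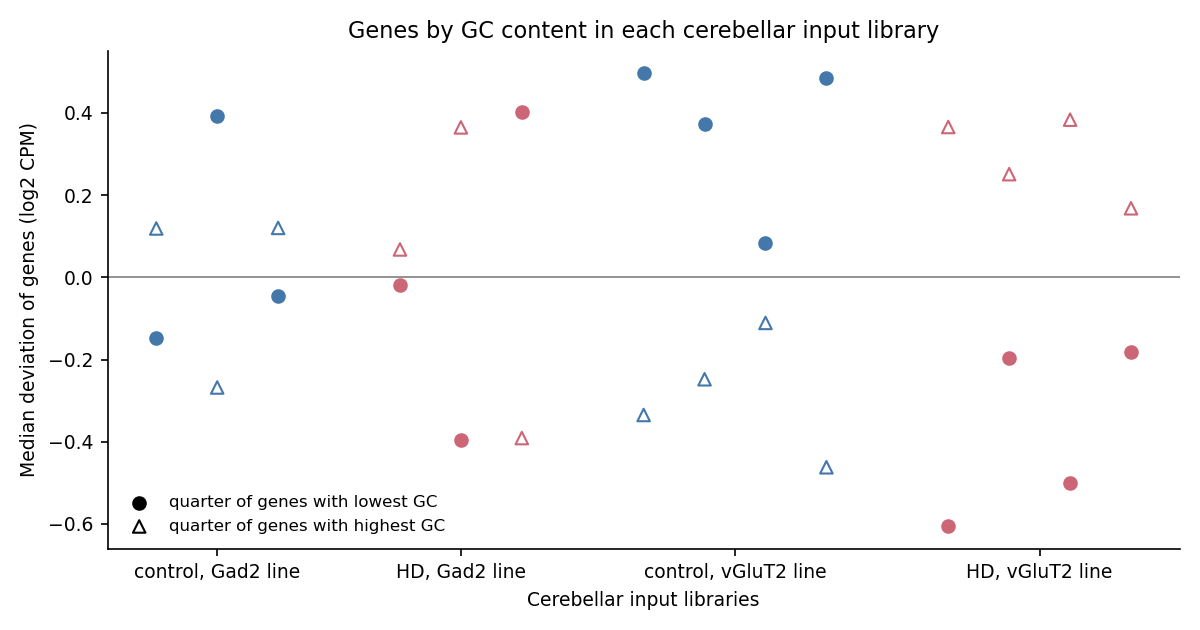
Median log2 deviation (y axis) of the lowest and the highest of 4 equal groups of genes by GC content, for each cerebellar input library (x axis). Low-GC genes lie at −0.61 to −0.18 in the 4 HD libraries of the vGluT2 line and at 0.08 to 0.50 in its 4 controls, while both genotypes of the Gad2 line span 0.

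In the cerebrum the levels of HD and control mice overlapped for every member tested, in each IP and in input of the lines together. No member was called in any of the 5 comparisons by edgeR or by DESeq2, and at an unadjusted p under 0.05 only Stap2 in input would have passed. Few genes of any kind were called there. The share was 0.0279% of 14342 genes in the Gad2 IP (4 genes, with 1313 at an unadjusted p under 0.05 and 75 by DESeq2), 0.034% of 14713 in the PV IP and 0.00697% of 14354 in the vGluT2 IP. It was 0.0% of 14689 in the SST IP (none by edgeR, 207 at an unadjusted p under 0.05, 2 by DESeq2) and 0.141% of 14871 in input of the Gad2, PV and vGluT2 lines. A missed threshold does not show that levels were equal, and most members were low in the cerebrum.

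Spef1 had the most cerebral counts of the members. In the Gad2 IP its 6 controls ran from 7.89 to 13.7 CPM (median 8.53) and its 6 HD libraries from 8.02 to 10.9 CPM (median 9.42). The vGluT2 IP had 8.13 to 14.9 CPM in controls (median 8.85) and 7.32 to 12.8 CPM in HD mice (median 10.2). The genotypes overlapped over nearly their whole range, and the log2 fold changes were −0.03 (SE 0.153, adjusted p = 0.948) and −0.02 (SE 0.181, adjusted p = 0.980). The PV IP of Spef1 had 8.86 to 15.7 CPM in controls (median 10.2) and 10.7, 13.3, 15.6, 13.1 and 8.40 CPM in HD mice (0.17, SE 0.167, adjusted p = 0.9999). In the SST IP the controls had 12.8, 10.4, 15.96, 13.4 and 10.5 CPM and the HD mice 16.4, 12.0, 10.7 and 23.2 CPM (0.30, SE 0.218, adjusted p = 0.9996). Cerebral input was level, at 9.32 ± 1.80 CPM in HD mice and 9.60 ± 2.53 CPM in controls (n = 9 each), a difference of 0.00 on the log2 scale (SE 0.133, adjusted p = 0.991).

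Ccdc63 lay at 1.01 CPM or less in every cerebral library. Its controls and HD mice stood at 0.385 ± 0.289 and 0.365 ± 0.262 CPM in the Gad2 IP, which is −0.10 on the log2 scale, HD minus control (SE 0.574, adjusted p = 0.948). In the PV IP they stood at 0.755 ± 0.158 and 0.583 ± 0.194 CPM (−0.42, SE 0.278, adjusted p = 0.9999). The vGluT2 IP gave 0.325 ± 0.123 and 0.396 ± 0.307 CPM (0.30, SE 0.551, adjusted p = 0.881), a direction that turned to −0.25 without the re-sequenced HD library at 1.01 CPM and to −0.39 with the replicate block. All of these groups overlapped, as they did in the SST IP, with 0.349 ± 0.190 and 0.509 ± 0.269 CPM (0.54, SE 0.545, adjusted p = 0.9996), and in input, with 0.312 ± 0.132 and 0.295 ± 0.192 CPM (−0.06, SE 0.352, adjusted p = 0.959).

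Neb was somewhat higher in the PV and SST IPs than elsewhere in the cerebrum. It held 1.48 ± 0.423 CPM in control and 1.58 ± 0.342 CPM in HD PV IPs (0.08, SE 0.231, adjusted p = 0.9999), and 1.71 ± 0.548 and 1.63 ± 0.295 CPM in the SST IP (−0.05, SE 0.307, adjusted p = 0.9996). In the Gad2 IP it held 0.431 ± 0.181 and 0.389 ± 0.369 CPM (−0.12, SE 0.707, adjusted p = 0.951), in the vGluT2 IP 0.614 ± 0.155 and 0.424 ± 0.408 CPM (−0.53, SE 0.754, adjusted p = 0.845) and in input 0.430 ± 0.381 and 0.507 ± 0.396 CPM (0.43, SE 0.579, adjusted p = 0.840). HD and control ranges overlapped in each set.

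Svep1 was also better represented in the PV and SST IPs, and in cerebral input. Controls and HD mice had 3.01 ± 1.04 and 3.42 ± 1.14 CPM in the PV IP (0.16, SE 0.260, adjusted p = 0.9999), 4.77 ± 2.51 and 3.89 ± 0.468 CPM in the SST IP (−0.30, SE 0.329, adjusted p = 0.9996) and 3.61 ± 0.381 and 3.60 ± 0.944 CPM in input (0.03, SE 0.157, adjusted p = 0.960). Its Gad2 IP held 0.926 ± 0.209 and 0.782 ± 0.343 CPM (−0.26, SE 0.326, adjusted p = 0.726) and its vGluT2 IP 0.446 ± 0.139 and 0.451 ± 0.289 CPM (0.01, SE 0.697, adjusted p = 0.995). The ranges of the genotypes overlapped throughout.

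Stap2 was under 0.5 CPM in nearly every cerebral IP and had enough counts for a test in the SST IP and in input. The SST IP held 0.330, 0.141, 0.280, 0.457 and 0.315 CPM in controls and 0.224, 0.277, 0.222 and 0.296 CPM in HD mice (−0.25, SE 0.463, adjusted p = 0.9996). In input it measured 0.597 ± 0.266 CPM in 9 controls and 0.325 ± 0.201 CPM in 9 HD mice, which is −0.88 on the log2 scale (SE 0.377) with an adjusted p of 0.684. By line, the vGluT2 input had 0.873, 0.503 and 0.372 CPM in controls and 0.183, 0.0821 and 0.191 CPM in HD mice. The PV line had 0.727 ± 0.246 and 0.397 ± 0.258 CPM, and the Gad2 line 0.482 ± 0.330 and 0.426 ± 0.155 CPM. Its means in the untested IPs were 0.103 ± 0.0893 (control) and 0.170 ± 0.165 CPM (HD) for Gad2, 0.235 ± 0.118 and 0.205 ± 0.162 CPM for PV, and 0.316 ± 0.163 and 0.194 ± 0.122 CPM for vGluT2.

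Chil5 had too few cerebral counts for any test. All 12 Gad2 IPs held 0 counts, which allows up to 3 counts in each library. The other IPs held 2 counts in 1 of 6 control and 5 in 1 of 5 HD PV libraries, 3 in 1 of 6 control and 5 in 3 of 6 HD vGluT2 libraries, and 1 in 1 of 5 control and 10 in 2 of 4 HD SST libraries. Cerebral input held 12, 7, 3 and 6 counts over the controls of the Gad2, PV, vGluT2 and SST lines and 5, 27, 3 and 25 over their HD mice. In the PV line the HD inputs were thus at 0.439, 0.463 and 0.146 CPM and the controls at 0.0667, 0.122 and 0 CPM, which was not tested.

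**Figure D3:**
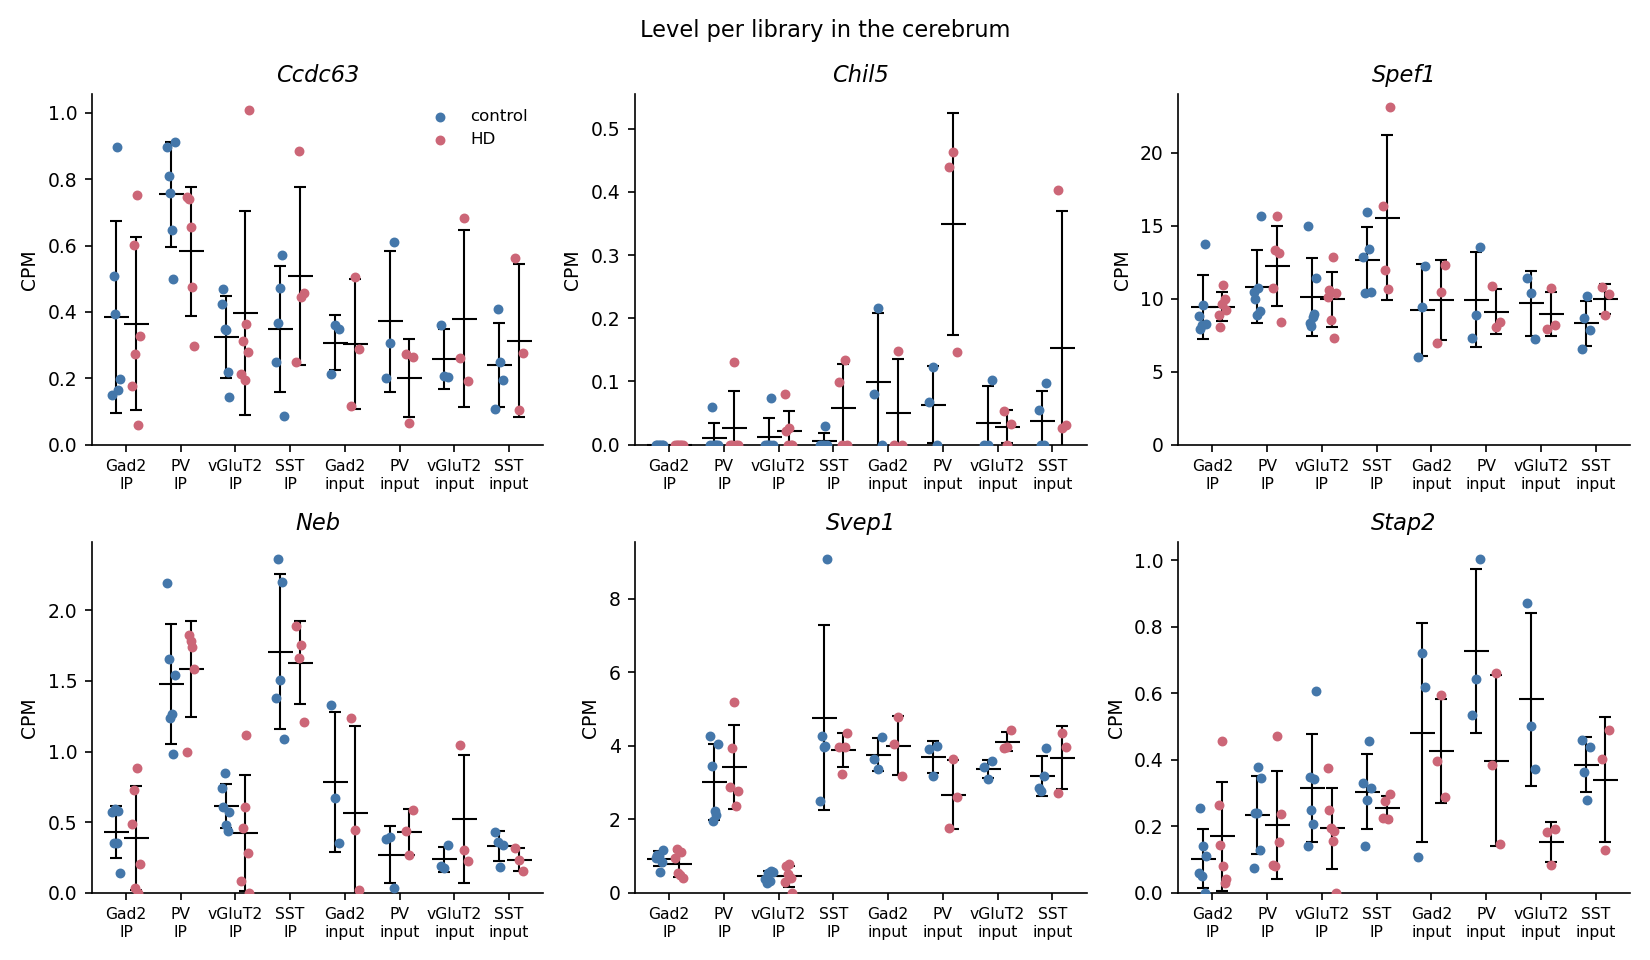
Level in CPM (y axis) of each member in every cerebral library by set (x axis), controls in blue and HD in red, with the mean and SD. The genotypes overlap in the IPs of all members, and Chil5 is at 0 in all 12 Gad2 IPs.

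Whether the HD difference in input differed between regions was tested as an interaction in the Gad2 and vGluT2 lines, added after seeing the data, with 0.202% of 14885 genes called. Ccdc63 and Svep1 were 2 of those 30 genes. The HD effect in the cerebellum minus that in the cerebrum was −2.28 for Ccdc63 (SE 0.423, adjusted p = 0.0155) and −1.26 for Svep1 (SE 0.214, adjusted p = 0.00809). Spef1 (0.68, SE 0.227, adjusted p = 0.0980) and Neb (−2.73, SE 0.832, adjusted p = 0.0980) missed the threshold, and DESeq2 called Spef1 at 0.73 (adjusted p = 0.0480). Each of them was called by edgeR without the first control or the third HD cerebral input of the Gad2 line, or without the third HD cerebellar input of that line, in fits that gave 0.61 to 0.77 for Spef1 and −3.19 to −2.18 for Neb over all single libraries left out. Stap2 (−0.79, SE 0.525, adjusted p = 0.243) was not called, and Chil5 is not read, for lack of cerebral counts. Libraries of both regions come from the same mice in part, and the fit did not use that.

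In control mice the regions were compared by a test in input alone, where 58.2% of 14901 genes were called. The cerebellum was higher by 4.22 for Ccdc63 on the log2 scale, 4.68 for Neb, 3.09 for Svep1 and 2.83 for Stap2, with adjusted p of 2.79e-05 or less. Chil5 stood at 6.56 ± 1.49 CPM in cerebellar and 0.0663 ± 0.0863 CPM in cerebral input, and its call is not read, since its counts passed the filter through the cerebellum only. Spef1 was at 0.40 (SE 0.181, adjusted p = 0.0698) and gained a call without the second control of the cerebellar Gad2 line, the fourth of the cerebellar vGluT2 line or the first of the cerebral vGluT2 line, and without a filter on low counts (0.48, adjusted p = 0.0404).

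No test of the members is read in the control comparisons that follow, because their cerebellar IP libraries served the choice. Between Gad2 IPs of the regions, where 51.1% of 14368 genes were called, the cerebellum minus the cerebrum was 3.37 for Ccdc63 on the log2 scale (SE 0.411), 3.76 for Neb (SE 0.364), 3.64 for Svep1 (SE 0.278) and −0.05 for Spef1 (SE 0.183). Stap2, with 22 counts in the 6 cerebral libraries together, was at 1.35 ± 0.348 CPM in the cerebellum and 0.103 ± 0.0893 CPM in the cerebrum. Chil5 held 0.651 CPM or more in each cerebellar library and 0 counts in each cerebral one. Between vGluT2 IPs, where 63.2% of 14277 genes were called, the values were 5.10 for Ccdc63 (SE 0.251), 4.94 for Neb (SE 0.223), 6.31 for Svep1 (SE 0.253), 4.82 for Stap2 (SE 0.288) and −0.10 for Spef1 (SE 0.179). Chil5 held 3 counts in the 6 cerebral vGluT2 IPs together, against 345 to 697 in each cerebellar one.

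Within the control cerebellum the vGluT2 IP minus the Gad2 IP was 1.504 for Ccdc63 (SE 0.171), 1.72 for Neb (SE 0.246), 1.63 for Svep1 (SE 0.246), 3.55 for Chil5 (SE 0.284), 2.76 for Stap2 (SE 0.227) and 0.07 for Spef1 (SE 0.183) on the log2 scale. Of 13879 genes 56.4% were called, so a difference between these IPs was usual.

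Against input, the control Gad2 IP stood at −2.63 for Chil5 (SE 0.264), −1.503 for Stap2 (SE 0.272), −1.39 for Svep1 (SE 0.220), −1.05 for Neb (SE 0.255), −0.46 for Spef1 (SE 0.186) and −0.38 for Ccdc63 (SE 0.207), beside 57.1% of 14378 genes called. The control vGluT2 IP stood at 1.21 for Stap2 (SE 0.222), 1.07 for Ccdc63 (SE 0.195), 0.86 for Chil5 (SE 0.198), 0.61 for Neb (SE 0.226), 0.18 for Svep1 (SE 0.179) and −0.44 for Spef1 (SE 0.178), beside 56.7% of 14317 genes called. With the mouse as a block Neb was at −0.55 in the first, and Chil5 was at 0.48, Neb at 0.44 and Svep1 at 0.35 in the second. Both comparisons use the same control inputs, and those of IPs and of regions share control IPs.

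The order of the control sets put the cerebellar vGluT2 IP first for 5 members. Ccdc63 went from 12.0 ± 2.06 CPM there to 5.42 ± 1.69 and 4.97 ± 1.69 CPM in input of the Gad2 and vGluT2 lines and 4.14 ± 0.709 CPM in the Gad2 IP. The vGluT2 IP stood clear of the next set, the following 3 overlapped each other, and the 8 cerebral sets formed a lower block of overlapping neighbours from 0.755 ± 0.158 to 0.240 ± 0.126 CPM. Chil5 went in separate steps from 13.2 ± 3.96 CPM in the vGluT2 IP to 6.70 ± 0.488 and 6.45 ± 2.07 CPM in the inputs, to 1.11 ± 0.441 CPM in the Gad2 IP and to 0.0988 ± 0.110 CPM or less in the cerebrum. Stap2 had the same steps, from 9.38 ± 1.47 to 3.92 ± 1.88 and 3.50 ± 0.737 and then 1.35 ± 0.348 CPM, except that its Gad2 IP overlapped the highest cerebral set, PV line input at 0.727 ± 0.246 CPM.

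Neb and Svep1 had less distinct steps. Neb overlapped from set to set through the vGluT2 IP at 19.8 ± 5.00, the inputs at 12.6 ± 3.06 (vGluT2 line) and 10.5 ± 4.40 (Gad2 line) and the Gad2 IP at 5.87 ± 2.04 CPM, all above the cerebral sets, which began at 1.71 ± 0.548 CPM in the SST IP. Svep1 overlapped from 36.6 ± 10.6 CPM in the vGluT2 IP through inputs of 32.5 ± 8.22 and 26.8 ± 5.39 CPM, stepped down to 11.6 ± 4.02 CPM in the Gad2 IP, which overlapped the cerebral SST IP at 4.77 ± 2.51 CPM, and ended with the cerebral Gad2 and vGluT2 IPs at 0.926 ± 0.209 and 0.446 ± 0.139 CPM. Spef1 had no steps, since its 12 control sets ran from 13.7 ± 3.85 to 8.31 ± 1.54 CPM with every neighbour overlapping.

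In HD mice the order was different for Ccdc63, Spef1, Neb and Chil5, among others. Ccdc63 had all 4 cerebellar sets overlapping in turn, at 2.94 ± 0.866, 2.05 ± 0.298, 1.53 ± 0.810 and 1.22 ± 0.0910 CPM for the vGluT2 IP, the Gad2 IP and the inputs of the Gad2 and vGluT2 lines. Spef1 was led by Gad2 line input at 23.97 ± 4.47, the vGluT2 IP at 22.5 ± 3.40 and vGluT2 line input at 18.8 ± 4.60 CPM, with each set overlapping the next down to 8.94 ± 1.54 CPM. Neb in HD input of the vGluT2 line, the second set in controls, was at 1.56 ± 0.307 CPM, below the cerebral SST IP at 1.63 ± 0.295 and PV IP at 1.58 ± 0.342 CPM and overlapping both. Chil5 in HD cerebral input of the PV line, at 0.349 ± 0.176 CPM, was above the cerebellar Gad2 IP at 0.284 ± 0.130 CPM and overlapped it. Per kilobase of exon, which allows a comparison between genes, the control vGluT2 IP held 8.76 ± 2.62 CPM of Chil5, 3.65 ± 0.573 of Stap2, 3.55 ± 0.581 of Spef1, 2.27 ± 0.657 of Svep1, 1.63 ± 0.280 of Ccdc63 and 0.745 ± 0.188 of Neb.

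Granule cell carry-over into the Gad2 IP was described from 11 granule cell markers, all found and all above 1 CPM in the cerebellar IPs, with Cbln3 the most abundant (Zic1 in HD Gad2 IPs). In the control Gad2 IP they stood at 7.44% (Neurod1) to 23.2% (Zic1) of their vGluT2 IP level, with a median of 10.9%, and in HD mice at 11.3% (Cbln3) to 32.2% (Zic1), with a median of 14.1%. Chil5, at 8.38%, and Stap2, at 14.4%, were inside the control range of the markers. Neb at 29.6%, Svep1 at 31.7% and Ccdc63 at 34.6% were above it, and Spef1 was at 93.3%. In HD mice Chil5, at 6.89%, was below the whole range of the markers, Stap2 at 25.1%, Svep1 at 27.9% and Neb at 28.1% were inside it, and Spef1 at 66.9% and Ccdc63 at 69.8% were above it. The HD range reached 32.2% through Zic1 alone, and the next marker, Zic2, was at 26.7%. Neb and Svep1 were above every HD marker but Zic1. Only Spef1 and Ccdc63 were thus above all markers in both genotypes, a division that rests on Zic1.

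The size of the HD difference can be set against the same ratio. In CPM, the difference in the Gad2 IP was 9.06% of that in the vGluT2 IP for Chil5, 10.96% for Stap2, 23.1% for Ccdc63, 31.3% for Neb, 37.4% for Svep1 and 46.7% for Spef1. For the 11 markers the same quantity ran from −20.4% (Pax6) to 24.6% (Fat2). These are values of the contrasts that chose the members, given as a description.

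Summed over the list, granule cell markers were at 1268 to 2234 CPM in control Gad2 IPs (median 1706) and 1101 to 1943 CPM in HD ones. The vGluT2 IP held 14605, 13726, 14410, 14875 and 10822 CPM in controls and 8284 to 10557 CPM in HD mice. Granule cell markers were thus lower in every HD vGluT2 IP and overlapped between genotypes in the Gad2 IP. Their sum fell less in the vGluT2 IP, as a share of the control mean, than Ccdc63, Chil5, Stap2, Neb or Svep1. Single markers differed, since Cbln3 (4746 to 2664 CPM) and Neurod1 (997 to 537 CPM) fell by a larger share than Svep1. The other markers fell by a smaller share than Svep1. In input the list summed to 5799, 7282 and 6157 CPM (control) and 5289, 5025 and 5690 CPM (HD) in the Gad2 line. In the vGluT2 line it summed to 7212, 5937, 5895 and 5186 CPM (control) and 5612, 5960, 5221 and 6698 CPM (HD). Per 1000 CPM of granule cell markers, Ccdc63 was at 2.47 ± 0.655 in control and 1.34 ± 0.411 in HD Gad2 IPs and at 0.879 ± 0.126 and 0.311 ± 0.109 in vGluT2 IPs. Chil5 on this scale was at 0.635 ± 0.218 and 0.185 ± 0.0908 in the Gad2 IP and 0.957 ± 0.218 and 0.440 ± 0.157 in the vGluT2 IP. Stap2 gave 0.780 ± 0.190 and 0.384 ± 0.209 in the first and 0.699 ± 0.183 and 0.241 ± 0.0746 in the second. Neb gave 3.36 ± 0.984 and 1.78 ± 0.200 in the Gad2 IP and 1.44 ± 0.290 and 1.06 ± 0.103 in the vGluT2 IP. Svep1 gave 6.56 ± 1.43 and 3.87 ± 0.317 in the Gad2 IP and 2.69 ± 0.699 and 2.28 ± 0.379 in the vGluT2 IP. Spef1 was higher in HD mice on this scale too, at 9.96 ± 3.81 against 5.41 ± 1.66 in the Gad2 IP and 2.40 ± 0.555 against 0.722 ± 0.154 in the vGluT2 IP. The genotypes overlapped on this scale in the Gad2 IP for all members but Chil5 and Neb, so Ccdc63 and Spef1 lost the separation they had there in CPM, and in the vGluT2 IP for Neb and Svep1. With the log2 sum of the list as a covariate in the Gad2 IP, the log2 fold changes were −1.04 for Ccdc63, 0.67 for Spef1, −0.93 for Neb, −0.78 for Svep1, −1.84 for Chil5 and −1.26 for Stap2. How much of each member's Gad2 IP signal came from granule cells was not tested.

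**Figure D4:**
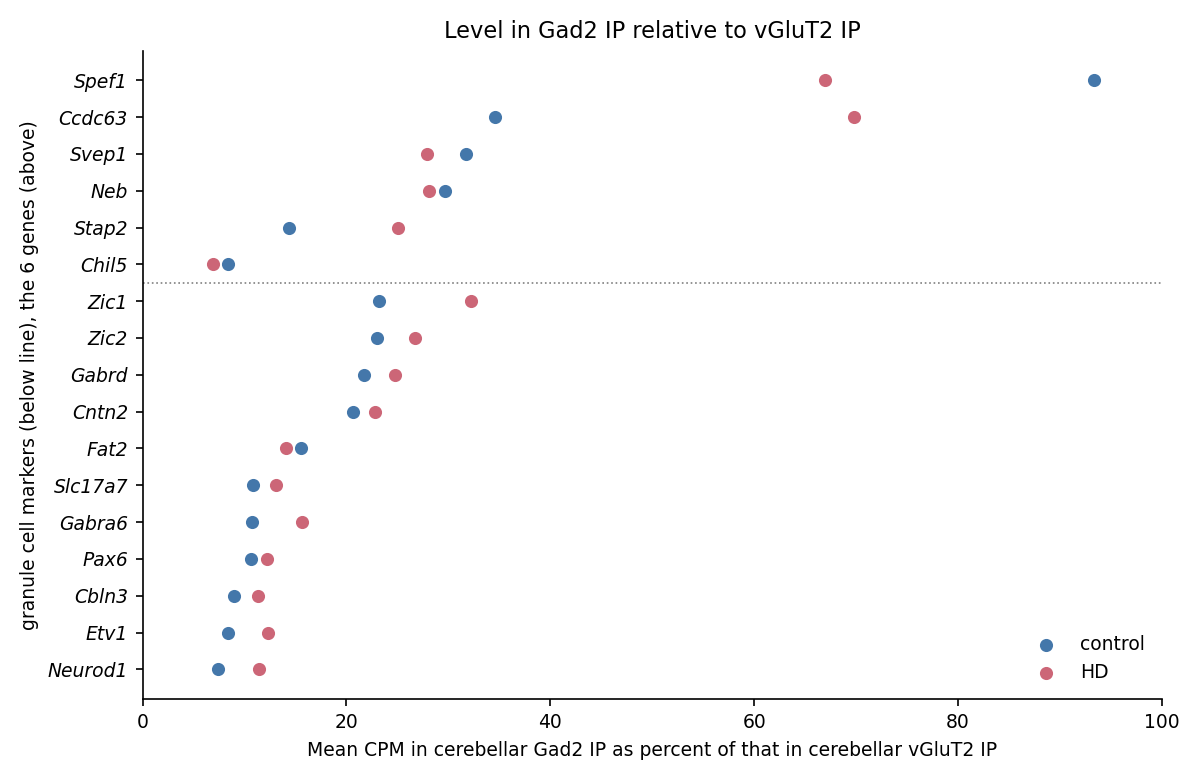
Level in the cerebellar Gad2 IP as a percentage of that in the vGluT2 IP (x axis) for 11 granule cell markers and the 6 members (y axis), in controls and HD mice. Chil5 at 8.38% and Stap2 at 14.4% lie among the markers in controls, and Spef1 at 93.3% lies farthest from them.

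Genes related to the members by role were followed in cerebellar input, where the median log2 fold change of all genes was −0.01, with 12.5% of them called lower in HD mice and 12.0% higher. Of 25 tested genes of the axoneme and motile cilium, which drive ciliary beating, 5 fell and none rose (median −0.49). The largest were the dynein heavy chains Dnah11 (−2.38) and Dnah5 (−1.37), with Cfap43 (−1.94) and Spef2 (−1.27), while the most abundant in controls, the transcription factor Rfx3, was not called. Of 16 sarcomere and thin filament genes 4 fell (median 0.05), namely Tcap (−1.57), the nebulin relative Nebl (−1.22), the pointed-end capping gene Tmod2 (−0.96), also the most abundant in controls, and Mybpc3 (−0.68). In the chitinase family 2 of 5 fell (median −0.55), Ovgp1 (−1.75) and Ctbs (−0.55), and Chid1 was the most abundant. Of 12 partners and relatives of SVEP1 1 rose, Sez6 (0.79), and none fell (median −0.24), with Nell2 the most abundant. Among 10 genes of STAP adaptor signalling 5 rose (median 0.28), the receptor Csf1r (0.51), Stat5a (0.51), Stat5b (0.41), Stat3 (0.40) and the kinase Src (0.40), and the kinase Jak2 fell (−1.22), with Src and Stat5b the most abundant.

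Markers of the cell types in the tissue were read in the same fit, beside the same shares of all genes (12.5% called lower and 12.0% higher). Granule cell markers had 1 gene up, Slc17a7 (0.57), and 1 down, Cbln3 (−0.55), of 11 (median −0.18). Purkinje cell markers had 4 of 9 down (median −0.55), among them Foxp2 (−1.32), Itpr1 (−0.93) and Calb1 (−0.56). Their sum, led by Itpr1, was 4977, 5208 and 4435 CPM in control and 3565, 3546 and 4367 CPM in HD input of the Gad2 line, and 4750.2, 5128, 5414 and 5311 CPM in control and 3537, 3417, 3170.1 and 3500.1 CPM in HD input of the vGluT2 line. Purkinje cell markers were thus lower in every HD input than in every control, as were Ccdc63, Svep1, Chil5 and Stap2, and all 9 were above 1 CPM in each set. Inhibitory interneuron markers had 4 of 7 down (median −0.44), Lgi2 (−0.78), Tfap2b (−0.68), Grik3 (−0.45) and Sorcs3 (−0.44), and unipolar brush cell markers 1 of 4, Sln (−0.82, median −0.71). The interneuron sum, led by Lgi2, was 346 to 476 CPM in control and 259 to 384 CPM in HD input, and Otx2 led the unipolar brush cell list. Of the GABAergic list Gad2 (−1.001) and Gad1 (−0.35) fell, and the single markers Slc17a6 (−1.32), Pvalb (0.21) and Sst (−0.71) were not called. Among glia, Aqp4 (−1.02) fell of 8 astrocyte genes (median −0.03), Mobp (−1.05) fell and Cnp (0.54) rose among 6 oligodendrocyte genes (median 0.03), and Tmem119 (0.66) and Csf1r (0.51) rose of 6 microglial genes (median 0.18), lists led by Apoe, Mbp and Csf1r. No ependymal or choroid plexus gene of 9 (median −0.44) and no vascular or meningeal gene of 8 (median 0.09, led by Col1a2 or Flt1) was called by edgeR.

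Ependymal and choroid plexus cells carry motile cilia, and their RNA varied greatly between dissections. Their list, of which Ttr was by far the most abundant gene, summed to 4919, 1914 and 62.7 CPM in control and 848, 48.8 and 1418 CPM in HD input of the Gad2 line. In the vGluT2 line it summed to 1641, 1523, 1882 and 209.6 CPM in controls and 1145, 1839, 1857 and 60.6 CPM in HD mice, so low and high libraries occurred in both genotypes. Without the control input of the Gad2 line with the highest sum, an alternative chosen after seeing the data, all 6 members were called, at −2.02 for Ccdc63, −1.47 for Chil5, 0.80 for Spef1, −2.50 for Neb, −0.96 for Svep1 and −1.66 for Stap2. The part of other cell types in the members' changes was not tested beyond this.

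Neighbouring genes were read for shared signal. Spef1 overlaps Cenpb on the same strand, by 20 of its 2747 exonic bases (0.728%) in 1 of 3 transcripts. On the other strand it overlaps Cdc25b and Gm14232. Cenpb, which encodes a centromere protein, rose in cerebellar input from 189.7 ± 31.1 to 304 ± 66.5 CPM (log2 0.60, SE 0.134, adjusted p = 0.0273). Cdc25b was at 0.15 there (SE 0.172, adjusted p = 0.517). In the cerebellar IPs Cenpb was not called, at 0.25 for Gad2 (adjusted p = 0.9999) and 0.31 for vGluT2 (adjusted p = 0.146). Nor was it called in the cerebrum, where it was at 0.51 in the Gad2 IP (adjusted p = 0.536). Ccdc63 overlaps Myl2 on the other strand, at 0.0212 CPM in the control vGluT2 IP and 0.141 CPM in control input. Gm14232 and the genes that overlap Chil5 and Neb held under 0.05 CPM in both, and Svep1 and Stap2 overlap none.

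For each member the 3 genes most like it were found by Pearson's correlation of mean log2(CPM + 1) over the 24 sample sets, which share libraries of the same mice, among 14473 genes. Ccdc63 was nearest to Neb itself (0.956), then Syne4 (0.948) and Dnah11 (0.945). Chil5 was nearest to Tssk5 (0.991), Cabp2 (0.989) and Car9 (0.985), and Stap2 to Fut1 (0.975), Tssk5 (0.964) and Cabp2 (0.962). Neb was nearest to Btbd3 (0.965), Rif1 (0.965) and Pde3b (0.962), and Svep1 to Appl2 (0.974), Stk10 (0.972) and Fnbp1 (0.964). Spef1 had the weakest likeness, to Gzmm (0.810), Fyn (0.796) and Arih2 (0.790). With 0.1 in place of 1 added to the CPM, none of these 3 genes was kept for Ccdc63, 2 were for Chil5, 3 for Spef1 and 1 each for Neb, Svep1 and Stap2. The sets include the cerebellar IPs that chose the members. In cerebellar input all the genes named here for the 5 lower members fell, with adjusted p from 0.000476 (Fut1) to 0.0494 (Syne4), beside 12.5% of all genes. Some differed little in the Gad2 line, such as Rif1, at 36.4 ± 24.4 CPM in controls and 29.96 ± 19.9 CPM in HD mice, against 58.4 ± 12.0 and 12.7 ± 5.95 CPM in the vGluT2 line, where GC content moved with genotype, and Pde3b, at 17.8 ± 4.49 and 16.1 ± 4.37 against 22.7 ± 4.48 and 5.86 ± 1.28 CPM. The likeness was taken partly over those same input sets of both genotypes, so nothing more is read from this. None of the 3 genes nearest to Spef1 was called.

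The sequence before the transcription start was searched for shared motifs, in the 250 bases upstream from RefSeq (GRCm38.p6), which held 4 of the 6 members (Chil5, Spef1, Svep1 and Stap2, the last with 2 starts). In the annotation the windows of Spef1 and Svep1 lie inside the genes' own spans and overlap exons of Spef1-202 and of Svep1-202, 203 and 204, and the first of Stap2 overlaps an exon of Mpnd-202, so these are not purely upstream of every transcript. Motifs were searched on both strands. GTTGCC, part of the site of the RFX factors of ciliary genes, is in 10.4% of 32817 promoters and in none of these 5. A looser form read in Spef1 and then counted, GTTGCNATG, is in 1.22% of promoters and in Spef1 alone here, at base −36. TATAAA (12.4% of promoters) is in Svep1, at −42 on the other strand, and GGGCGG (32.7%) in the first start of Stap2, at −50 on the other strand. CCAAT (33.8%) is in Chil5, at −37. TGACGTCA (1.55%) is in none of the 5, and CANNTG (66.2%) is in all but Svep1. No motif other than CANNTG was thus shared by a pair of members. A match is only a run of letters, not a known binding site. The windows follow with the motif in capitals, whole for Chil5 (chr3:106032896-106033145, minus strand). Its mean level, like those of Ccdc63, Neb, Svep1 and Stap2, was lower in HD mice in every cerebellar set. Stretches are given for Spef1 (chr2:131174827-131174854), Svep1 (chr4:58206619-58206646) and Stap2 (chr17:56005637-56005664), all on the minus strand.
Chil5: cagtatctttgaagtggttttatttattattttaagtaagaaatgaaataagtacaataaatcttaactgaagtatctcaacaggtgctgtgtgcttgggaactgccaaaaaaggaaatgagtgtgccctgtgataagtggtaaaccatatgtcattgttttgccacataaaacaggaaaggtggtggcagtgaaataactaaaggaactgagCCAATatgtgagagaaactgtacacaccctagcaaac
Spef1: tagcgacgGTTGCTATGgtttcggaaaa
Svep1: tcaaacatTTTATAggcttcgggagaga
Stap2: tccagcccCCGCCCagaactgctagaga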

How the data were processed

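The table deposited by the authors holds estimated counts per gene from Salmon after STAR alignment (nf-core/rnaseq) of stranded poly(A) read pairs, for 106 libraries (67 IP, 39 input) of 45 mice in 24 sets. The labels name GRCm38.p6 and no annotation release, and GENCODE M21 matched 55141 of 55401 genes. Counts (8.57% not whole) were rounded, and ERCC spike-ins (up to 4.45% of a library) were left out. Totals on mouse genes were 21905238 to 107753596 (median 35866734).

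Genes that code for proteins and whose mean count in a comparison was over 10 were tested in edgeR 4.0.16 (R 4.3.3) by quasi-likelihood F-test with TMM, the input fits with the Cre line as a covariate, and called at a Benjamini-Hochberg adjusted p of 0.05 or less. Alternatives were DESeq2 1.42.0, its size factors, other filters, blocks, covariates (Xist, the granule cell list), each line alone, GC content in 20 bins as an offset and each library left out. A floor of 3 counts per library stands for 0 and covers counting error only. Replicate numbers as a block were checked by the correlation of paired libraries, which ran from −0.851 to 0.430 in cerebellar input, so the unblocked fit was kept. Among whole comparisons, only control inputs of the 2 regions correlated in all 4 pairs (0.182 to 0.551). In cerebral input of HD and control mice each pair of the Gad2 line was alike (0.564 to 0.965). Pairs of the PV and vGluT2 lines there ran from −0.671 to 0.534.

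The members and the 18 gene lists were chosen with earlier results of these data known. Named genes are the members, list genes called in cerebellar input or a cerebral comparison (up to 4 a list) with the most abundant one, the 3 genes most like each member (pseudocount 1) and genes overlapping a member. Figures were drawn with matplotlib 3.10.9 and tables made with pandas 2.3.3 and numpy 2.4.6 under Python 3.11.15.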

Additional observations from a re-analysis of the deposited data

Results flagged for a closer look

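Chance nominally sets about 1 in 20 groups apart by the measure used here, the gap of the extreme library from its nearest neighbour as a share of the group's range, and 10 of 88 groups examined over the 6 genes held such a library. For Ccdc63 it was the re-sequenced HD cerebral vGluT2 IP, at 1.01 CPM against 0.363 CPM in the next. For Spef1 it was the control cerebral Gad2 IP 5, at 13.7 CPM against 9.56 CPM, and the control PV IP 6, at 15.7 CPM against 10.7 CPM. For Svep1 it was the control SST IP 6, at 9.09 CPM against 4.27 CPM, and for Stap2 the HD cerebellar vGluT2 IP 4, at 3.58 CPM against 2.20 CPM, both the highest of their sets. For Chil5 they were cerebral IPs with 1 to 5 counts, namely control PV 2 at 0.0601 CPM, control SST 4 at 0.0285 CPM, control vGluT2 5 at 0.0731 CPM, HD PV 3 at 0.131 CPM and HD vGluT2 1 at 0.0802 CPM. In 4 of these Chil5 groups, all but HD vGluT2, the other libraries held 0 counts, so any count in 1 library stands apart by this measure. None of these was explained by a test.

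The HD effect in input differed between cerebellum and cerebrum by −2.28 for Ccdc63 and −1.26 for Svep1 on the log2 scale, in the interaction test given above, added after seeing the data.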

How the results depend on the processing

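Members' values kept their direction and, where a threshold applied, their side of it in 1633 of the recomputed results. They lost a call in 61, gained one in 14 and turned direction in 74, the last mainly cerebral values near 0. These counts include the control comparisons with cerebellar IPs, whose calls are not read. The 1633 also include the contrasts that chose the members, judged by direction and size without a threshold. Nothing is read from the steadiness of those. The cause was not tested for any of them. Chil5 had too few counts for a test in the cerebrum, and Stap2 in 3 of its 4 IPs.

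In cerebellar input the 6 members called became 1 with the replicate block, 0 in the Gad2 line alone (also 0 with the GC offset) and 5 to 6 with each library left out. The genes called, 3544, became 9 with the block, 0 in the Gad2 line (2 with the GC offset) and 7565 in the vGluT2 line. Leaving out single libraries gave 96 to 7408: 118 without HD Gad2 line 2 and 7408 without 3, 1278, 125, 122 and 96 without HD vGluT2 line 1 to 4, 302 without control Gad2 line 2, and 104, 104, 127 and 143 without control vGluT2 line 1 to 4. The control comparisons that involve cerebellar IPs are a description, since those IPs served the choice, and no call of a member is read in them. In control Gad2 IP against input the genes called went from 8214 to 4558 with the mouse as a block. With single libraries left out, in the vGluT2 IP against input, Neb ran from 0.49 to 0.74, and Spef1 from −0.52 to −0.31 there and from −0.56 to −0.35 in the Gad2 comparison. The line interaction called 1 member by DESeq2 and 0 to 1 with libraries left out, and the region interaction 2 to 4.

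Directions turned as follows. In the cerebral Gad2 IP, Spef1 was at 0.000723 with filterByExpr and Neb at 0.0384 with Xist. In the cerebral vGluT2 IP, Ccdc63 was at −0.39 with the replicate block and −0.25 without the re-sequenced library, Spef1 at 0.0015 without a filter and 0.0315 with the block, and Svep1 at −0.0341 with the GC offset. Svep1 in the SST IP was at 0.11 with the block. In cerebral input, Ccdc63 was at 0.0820 with SST input, and Spef1 at −0.0025 without a filter and −0.00012 with all gene types. Stap2 in the line interaction was at −0.48 with the GC offset. Without turning, the GC offset took Chil5 to −0.21, Ccdc63 to −0.20, Spef1 to −0.43 and Svep1 to −0.54 there, and Spef1 to 0.42 and Stap2 to −1.25 in the region interaction. The mouse as a block took Spef1 in control input between regions to 0.25 and, against input, Neb in the Gad2 IP to −0.55, and Chil5 and Svep1 in the vGluT2 IP to 0.48 and 0.35. Many of the members' cerebral values, none of them called, also moved by over 1.5 times under other settings.

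With single libraries left out, the ranges that crossed 0 were −0.41 to 0.35 (Ccdc63), −0.0669 to 0.12 (Spef1) and −0.48 to 0.14 (Neb) in the cerebral Gad2 IP, −0.0158 to 0.24 (Neb) and −0.0462 to 0.30 (Svep1) in the PV IP, −0.25 to 0.46 (Ccdc63), −0.0859 to 0.12 (Spef1) and −0.20 to 0.30 (Svep1) in the cerebral vGluT2 IP, and −0.18 to 0.0917 (Neb) and −0.47 to 0.0719 (Svep1) in the SST IP. In cerebral input they were −0.32 to 0.11 (Ccdc63), −0.0656 to 0.0742 (Spef1) and −0.0340 to 0.12 (Svep1). For Spef1 in controls they were −0.0251 to 0.17 between the cerebellar IPs, −0.15 to 0.0809 between Gad2 IPs and −0.16 to 0.0385 between vGluT2 IPs of the regions. In the line interaction they were −0.53 to 0.13 (Ccdc63) and −0.31 to 0.32 (Stap2), and in the region interaction −1.48 to 0.34 (Chil5), which is not read for lack of cerebral counts. Other values of the members that moved by over 1.5 times without turning ran from −0.42 to −0.12 (Svep1) in the cerebral Gad2 IP, −0.54 to −0.22 (Ccdc63) and 0.0543 to 0.28 (Spef1) in the PV IP, −1.09 to −0.26 (Neb) in the cerebral vGluT2 IP, 0.13 to 0.79 (Ccdc63), 0.0673 to 0.44 (Spef1) and −0.43 to −0.0492 (Stap2) in the SST IP and 0.0742 to 0.74 (Neb) in cerebral input. In controls they ran from −0.45 to −0.24 (Ccdc63, Gad2 IP against input) and 0.0517 to 0.29 (Svep1, vGluT2 IP against input). In the line interaction they ran from −0.66 to −0.22 (Chil5), −0.37 to −0.0350 (Spef1), −2.12 to −1.14 (Neb) and −0.49 to −0.13 (Svep1), and in the region interaction from −1.06 to −0.50 (Stap2).

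The number of genes called elsewhere moved by over 1.5 times as follows. The cerebellar Gad2 IP went from 2 to 22 by DESeq2, and the vGluT2 IP from 285 to 665 by DESeq2, 544 with the GC offset, 189 with Xist and 108 with the block. The cerebral Gad2 IP went from 4 to 75 (DESeq2) and 19 (GC offset), PV from 5 to 42 and 16, vGluT2 from 1 to 25 and 12, SST from 0 to 2 (DESeq2), and input from 21 to 119 (both) and 96 (SST input). The interactions went from 238 to 1843 (DESeq2) and 77 (GC offset), and from 30 to 1465 and 110. With single libraries left out the genes called were 0 to 3 in the cerebellar Gad2 IP, 149 to 255 in the cerebellar vGluT2 IP, 3 to 12 in the cerebral Gad2 IP, 0 to 4 in the PV IP, 0 to 1 in the cerebral vGluT2 IP, 0 to 1 in the SST IP, 4 to 43 in cerebral input, 0 to 3054 in the line interaction and 18 to 5757 in the region interaction.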
